A study of Mus musculus with 96 samples.

Results

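Npas4 and 8 other genes whose transcription follows neuronal activity (Arc, Homer1, Nptx2, Pcsk1, Nrn1, Vgf, Scg2 and Inhba) were followed in both hemispheres of the mouse brain after transient focal ischemia. The 9 genes were taken by symbol from a list that was drawn up with earlier results of these data known. Each was represented by 1 probe set, and they are 9 of the 19505 named genes on the array. Tissue came from 3 groups of male mice: diabetic BKS-Leprdb/db/JOrlRj mice aged 8-12 weeks, old C57Bl/6j mice aged 18 months, and C57Bl/6j mice aged 8-12 weeks (males). Each group had 8 mice with a 90-min occlusion of the middle cerebral artery by an intraluminal filament (MCAO) and 4 sham-operated mice, and all were killed 30 min after reperfusion, 2 h from the onset. From a brain slice at the level of bregma, the right side, where the artery was occluded (IP), and the left side opposite to it (CL) were each measured on a Clariom S Mouse array. The diabetic mice carry a non-functional leptin receptor on another strain than the remaining groups, so that diabetes and strain cannot be told apart, and the males were run in an earlier set of experiments than the diabetic and old mice, so that set and group cannot be told apart there either. Values are log2 signals, on which 1 unit is a doubling; the groups had been normalized apart, so levels were read only within a group. In a bulk slice, fewer cells of a type and less RNA per cell cannot be told apart.

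The 9 genes belong to the program by which neurons turn synaptic input and calcium entry into new transcripts. Npas4 is a neuron-restricted bHLH-PAS transcription factor that is induced by calcium influx through phosphorylation of CREB and related factors at cAMP response elements, and that controls inhibitory synapses and Bdnf. The other members act at the synapse or outside the cell: Arc in removal of AMPA receptors, the short Homer1 product in uncoupling of metabotropic glutamate receptors, Nptx2 in clustering of AMPA receptors, Nrn1 in neurite and synapse growth, and Pcsk1, Vgf, Scg2 and Inhba in the production of secreted peptides and of activin A. In experimental stroke, Npas4 and Arc are known as genes induced early by glutamate release and depolarisation.

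Since elements bound by CREB are known in promoters of this class, the RefSeq promoter windows (GRCm38.p6, 250 bases before to 50 after each annotated start) were searched on both strands for the palindrome TGACGTCA and for its shorter core TGACG or CGTCA, which the palindrome also contains. Windows were listed for 5 of the 9 genes (Npas4, Homer1 with 2, Pcsk1, Scg2 and Inhba) and not for Arc, Nptx2, Nrn1 and Vgf. The stretches that hold a match are shown 5′ to 3′ on the gene's strand, with the cores in capitals, since all 4 genes are described below as higher in IP than in CL after MCAO in at least 1 group.
Npas4, chr19:4990112-4990171 (-): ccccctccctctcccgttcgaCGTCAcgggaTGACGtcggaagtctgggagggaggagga
Homer1, chr13:93303695-93303754 (+): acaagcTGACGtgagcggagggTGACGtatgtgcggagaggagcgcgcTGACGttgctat
Pcsk1, chr13:75089757-75089816 (+): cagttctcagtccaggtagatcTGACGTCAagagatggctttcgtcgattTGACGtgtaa
Scg2, chr1:79440057-79440116 (-): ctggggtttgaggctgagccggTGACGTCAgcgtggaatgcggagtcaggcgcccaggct
The Npas4 stretch carries CGTCA and TGACG in opposite orientation, starting 179 and 169 bases before the start. In Homer1, 3 copies of TGACG begin 56, 40 and 14 bases before the start of its first window, and its second window has none. The full palindrome starts 78 bases before the start in Pcsk1, which has a further TGACG at 50 bases, and 68 bases before it in Scg2. Inhba has neither. Of all 32851 windows in the table, 1.79% hold TGACGTCA and 20.8% hold a core. The core motif bound by Npas4 itself, TCGTG or CACGA, stands in 16.0% of all windows and the CArG box of serum response factor in 1.63%, and neither is in a window of these 5 genes. A match is a description of the letters in this window only.

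Of the 34 mice used, 23 had MCAO (8 diabetic, 8 old, 7 males) and 11 sham surgery (4, 4 and 3). Both arrays of male MCAO mouse 3 and male sham mouse 1 stood apart (median correlation with the other male arrays 0.418 to 0.591) and these 2 mice were left out. Arrays labelled female were not used, since their hemisphere and surgery labels were in doubt, which left 68 of 96 arrays. For 8800 probe sets the deposited values of diabetic and old mice were displaced by 3 rows. After they were moved back, their means correlated with those of males at 0.975 and 0.976, against 0.169 and 0.170 before. This concerned Npas4, Arc, Homer1, Pcsk1, Nrn1 and Inhba and not Nptx2, Vgf and Scg2. By its defining markers the tissue was brain of mixed cell types: over the 3 groups, the neuronal genes Snap25 and Syt1 lay at the 99.9th to 100th percentile of all genes and Rbfox3 at 95.8 to 96.1, the oligodendrocyte gene Mbp at 99.8 to 99.9 and the astrocyte gene Gfap at 86.9 to 93.5. The number of arrays limits the precision.

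Npas4 (chr19:4984353-5003439) was the member with the largest change. After MCAO its IP level in diabetic mice ranged between 9.76 and 12.12 with a median of 11.48, against 7.88, 7.67, 6.96 and 7.21 in the IP and 7.85, 7.86, 7.24 and 7.68 in the CL hemisphere of the 4 sham mice. In old mice the IP level after MCAO was 10.09 to 11.88 with a median of 10.68, against 6.61, 6.70, 6.39 and 6.37 in the IP and 7.19, 8.54, 6.43 and 6.45 in the CL hemisphere of sham mice. In males the IP level was 8.90 to 10.17 with a median of 9.70 after MCAO, against 4.70, 4.86 and 4.65 in the IP and 4.96, 5.11 and 5.21 in the CL hemisphere of the 3 sham mice. All 23 ischemic hemispheres thus lay above every sham array of their own group. The same complete separation was met by 0.441%, 0.138% and 0.513% of all genes in the diabetic, old and male group.

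In the CL hemisphere of MCAO mice, Npas4 varied far more than in the IP hemisphere. The range between the lowest and the highest mouse was 2.36, 1.80 and 1.28 log2 units in IP arrays of diabetic, old and male mice, against 4.99, 4.82 and 4.52 in CL arrays. The CL level was 6.49 to 11.48 (median 7.38) in diabetic, 6.30 to 11.13 (median 7.34) in old and 4.99 to 9.51 (median 6.68) in male MCAO mice. In 3 of 8 diabetic, 2 of 8 old and 5 of 7 male MCAO mice the CL level was above every sham array of the group. The high CL levels belonged to diabetic mice 5, 1 and 2 (11.48, 10.20 and 9.68), to old mice 6 and 8 (11.13 and 9.76) and to male mice 6 and 2 (9.51 and 8.54). The remaining CL arrays did not exceed the highest sham array in diabetic and old mice, and in males 3 further ones did, at 6.56 to 6.99.

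**Figure D1:**
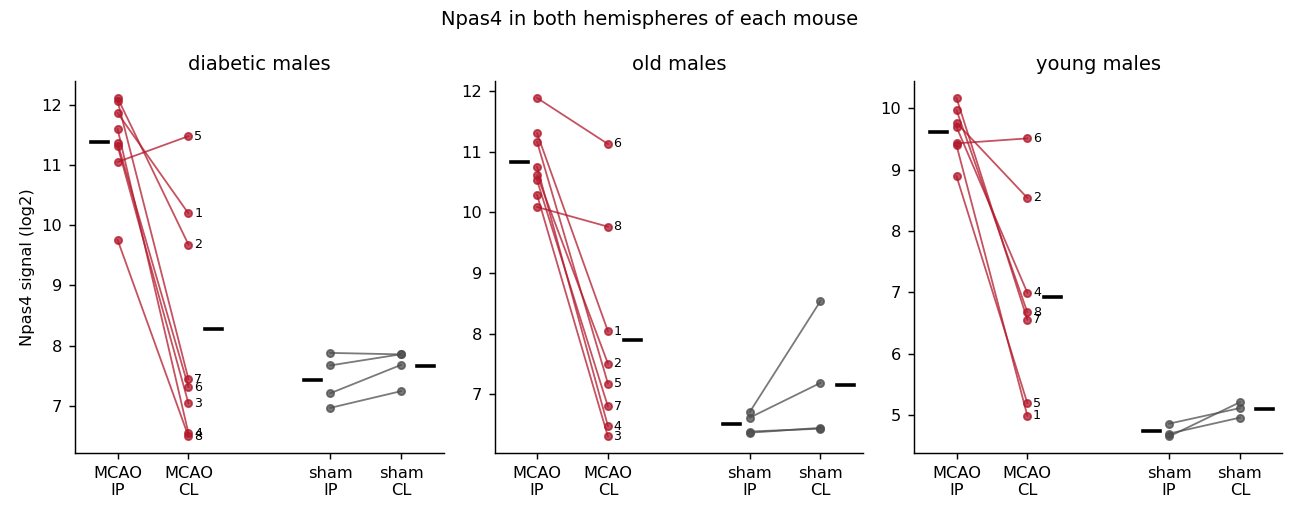
Npas4 signal (log2, vertical axis) in the IP and CL hemisphere of each mouse, joined by a line, with MCAO mice in red and numbered, and sham mice in grey; short black bars are means, and each panel is 1 group with its own scale. All MCAO IP points lie above all sham points of their panel, while the MCAO CL points reach from the sham range to the IP range.

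Expressed as IP minus CL of each mouse, Npas4 reached −0.43 to 5.06 (median 3.66) in diabetic, 0.32 to 4.27 (median 3.50) in old and −0.08 to 4.41 (median 3.30) in male MCAO mice. It was positive in 7 of 8, 8 of 8 and 6 of 7 mice. In sham mice the difference was 0.02, −0.19, −0.28 and −0.47 in diabetic, −0.57, −1.83, −0.05 and −0.08 in old and −0.26, −0.25 and −0.56 in male mice. The mice with the smallest MCAO differences (diabetic mouse 5 at −0.43, old mice 8 and 6 at 0.32 and 0.76, male mouse 6 at −0.08) were those with the highest CL levels, and their IP levels of 11.05, 10.09, 11.88 and 9.43 lay within the range of the other IP arrays or at its end.

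With the mouse as a block in limma over all 19505 genes, IP exceeded CL after MCAO by 3.12 ± 0.469 (SE) in diabetic mice (8.69-fold, adjusted p = 0.00855), by 2.93 ± 0.423 in old mice (7.61-fold, adjusted p = 0.156) and by 2.70 ± 0.413 in males (6.48-fold, adjusted p = 0.017). A gene was called at a Benjamini-Hochberg adjusted p under 0.25, the threshold of the study. In old mice Npas4 ranked first of all genes, but its call was lost without old MCAO mouse 1, 2, 3, 4, 5 or 7 or old sham mouse 1 or 4, where the difference was 2.74 to 2.93 (adjusted p = 0.262 to 0.469). When IP arrays of MCAO mice were set directly against IP arrays of sham mice in limma, Npas4 was higher by 3.96 ± 0.364 in diabetic, 4.31 ± 0.274 in old and 4.88 ± 0.216 in male mice (adjusted p = 0.000462, 1.07e-05 and 1.16e-08). The direct differences were 15.6-fold, 19.8-fold and 29.5-fold. CL arrays of MCAO mice against CL arrays of sham mice gave 0.61 ± 0.819, 0.75 ± 0.802 and 1.83 ± 0.747 in the same order of groups, none of which passed (adjusted p = 0.999, 1.00 and 1.00).

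Arc (chr15:74669081-74672570), whose product drives endocytosis of AMPA receptors, showed the same layout with a smaller size. Its IP level after MCAO was 9.02 to 10.31 (median 9.62) in diabetic mice, against 7.81, 8.11, 7.91 and 8.86 in the IP hemisphere of sham mice, and it was 8.45 to 9.76 (median 8.94) in old mice, against 7.66, 7.83, 7.79 and 8.16. In males the IP level was 7.71 to 8.52 (median 8.43) after MCAO, against 6.84, 6.35 and 6.48 after sham surgery. All IP arrays of old and male MCAO mice lay above all sham arrays of their group, as did 7 of 8 of the diabetic ones. Here too the CL hemisphere varied more, between 7.53 and 9.95 in diabetic, 7.47 and 9.90 in old and 6.29 and 8.46 in male MCAO mice, with the CL arrays of sham mice at 7.73 to 9.06, 7.88 to 8.41 and 6.09 to 6.31. The highest Arc CL values belonged to mice already named for Npas4: diabetic mouse 1 (9.95), diabetic mouse 5 (9.06), old mice 6 and 8 (9.90 and 9.06) and male mouse 6 (8.46).

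IP minus CL of Arc was −0.06 to 1.62 in diabetic, −0.25 to 1.60 in old and 0.06 to 1.90 in male MCAO mice, and −0.20 to 0.10, −0.40 to −0.04 and 0.13 to 0.53 in sham mice of these groups. The fitted difference after MCAO was 0.99 ± 0.182 in diabetic mice (adjusted p = 0.0197) and 1.21 ± 0.172 in males (adjusted p = 0.00983). In old mice it was 0.79 ± 0.161 and did not pass (adjusted p = 0.27). Arc was higher in IP of MCAO than in IP of sham mice in all 3 groups, by 1.43 ± 0.256, 1.20 ± 0.23 and 1.76 ± 0.175 in diabetic, old and male mice (adjusted p = 0.0346, 0.119 and 9.12e-05).

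Nptx2 (chr5:144545887-144557478) encodes a secreted pentraxin that gathers AMPA receptors at synapses. In the IP hemisphere after MCAO it measured 8.32 to 9.76 (median 8.88) in diabetic mice, against 7.89, 7.93, 7.66 and 8.07 in sham mice. Old mice had 8.13 to 9.31 (median 8.72), against 8.09, 7.36, 7.58 and 7.80, and males 6.83 to 7.79 (median 7.29), against 6.01, 6.57 and 6.78. Like Npas4, its IP arrays after MCAO lay above all sham arrays, IP and CL, in each of the 3 groups, which held for no other member. In the CL hemisphere it was 7.25 to 8.91, 7.60 to 9.01 and 6.38 to 7.30 in diabetic, old and male MCAO mice, against 7.75 to 8.10, 7.60 to 8.05 and 6.60 to 6.80 in sham mice. IP minus CL was 0.19 to 2.02 in diabetic, −0.10 to 1.15 in old and −0.02 to 1.31 in male MCAO mice, with sham mice at −0.09 to 0.13, −0.44 to 0.04 and −0.79 to 0.18. In the diabetic group no MCAO mouse overlapped with a sham mouse in IP minus CL, as was the case for 0.523% of all genes there. The difference after MCAO was called in diabetic mice (0.94 ± 0.158, adjusted p = 0.0129) and in males (0.73 ± 0.17, adjusted p = 0.21) and missed the threshold in old mice (0.66 ± 0.134, adjusted p = 0.27). In males the call was lost without any 1 of MCAO mice 1, 2, 4, 5, 7 and 8.

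Homer1 (chr13:93303757-93405129) is a postsynaptic scaffold gene whose short, activity-induced product competes with the long forms; the single gene-level probe set cannot tell these products apart. Its changes were small but regular. IP minus CL was 0.06 to 0.60 (median 0.38) in diabetic, −0.11 to 0.28 (median 0.19) in old and 0.00 to 0.38 (median 0.25) in male MCAO mice, positive in 22 of 23. Sham mice had 0.13, −0.03, −0.31 and −0.05 in diabetic, −0.11, −0.13, −0.15 and 0.02 in old and −0.39, −0.12 and 0.03 in male mice. The groups overlapped in part, and the difference after MCAO was called in diabetic mice (0.35 ± 0.0784, adjusted p = 0.0397), while it was 0.16 ± 0.0568 in old and 0.19 ± 0.0831 in male mice (adjusted p = 0.558 and 0.66).

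Pcsk1 (chr13:75089420-75134861), the prohormone convertase that cleaves precursors in dense-core vesicles, had an IP minus CL of −0.27 to 0.73 (median 0.44) in diabetic, −0.16 to 0.75 (median 0.35) in old and 0.00 to 1.07 (median 0.71) in male MCAO mice. In sham mice the values were −0.27, 0.20, 0.55 and 0.24 in diabetic, −0.03, −0.09, −0.13 and −0.02 in old and 0.08, −0.41 and 0.35 in male mice. The diabetic sham mice thus covered most of the range of the diabetic MCAO mice, and old sham mice lay below 7 of 8 old MCAO mice. In old mice all IP arrays after MCAO also lay above all sham arrays. The difference after MCAO was called in diabetic mice (0.39 ± 0.111, adjusted p = 0.076) and in males (0.62 ± 0.131, adjusted p = 0.132) and was 0.36 ± 0.0952 in old mice (adjusted p = 0.386). In males the call was lost without MCAO mouse 4, 5, 7 or 8.

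The granin-like precursors moved less. Scg2 (chr1:79434366-79440026), the precursor of secretoneurin, had an IP minus CL of −0.33 to 0.72 in diabetic, −0.23 to 0.41 in old and 0.04 to 0.60 in male MCAO mice, against −0.08 to 0.28, 0.00 to 0.07 and −0.25 to −0.02 in sham mice. It was called after MCAO in diabetic mice (0.30 ± 0.102, adjusted p = 0.122), and in males, where no MCAO mouse overlapped with a sham mouse, it was 0.29 ± 0.083 (adjusted p = 0.38). The corresponding share of all genes without overlap in IP minus CL was 1.09% in males and 0.21% in old mice, and Npas4 was among them in both. Vgf (chr5:137025301-137033351), a neurotrophin-inducible peptide precursor, had −0.42 to 0.62 in diabetic, −0.07 to 0.76 in old and −0.07 to 0.45 in male MCAO mice, against −0.10 to 0.18, −0.19 to 0.05 and −0.25 to 0.19 in sham mice. Its fitted differences after MCAO of 0.18 ± 0.107, 0.24 ± 0.0859 and 0.19 ± 0.0843 did not pass (adjusted p = 0.368, 0.558 and 0.681).

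Nrn1 (chr13:36725622-36734477), a membrane-anchored protein that promotes neurite growth, and Inhba (chr13:16004256-16031609), the subunit of activin A, were not called in any group. IP minus CL of Nrn1 was −0.18 to 0.73 in diabetic, −0.12 to 0.49 in old and −0.01 to 0.53 in male MCAO mice, against −0.07 to 0.27, −0.07 to 0.12 and −0.54 to 0.42 in sham mice, so that the groups overlapped throughout. The fitted differences after MCAO were 0.20 ± 0.0991, 0.11 ± 0.0703 and 0.25 ± 0.108 (adjusted p = 0.274, 0.796 and 0.654). Inhba differed in direction between mice: IP minus CL was −0.99, −0.93 and −0.04 in diabetic MCAO mice 4, 1 and 5 and 0.33 to 0.79 in the other 5, so that the mean was 0.05 ± 0.179 (SE). In old mice it was −0.50 to 0.43 (mean 0.03 ± 0.0952) and in males −0.26 to 0.84 (mean 0.41 ± 0.129, adjusted p = 0.439). Sham mice had −0.30 to 0.15, −0.10 to 0.45 and −0.33 to 0.11 in the diabetic, old and male group.

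**Figure D2:**
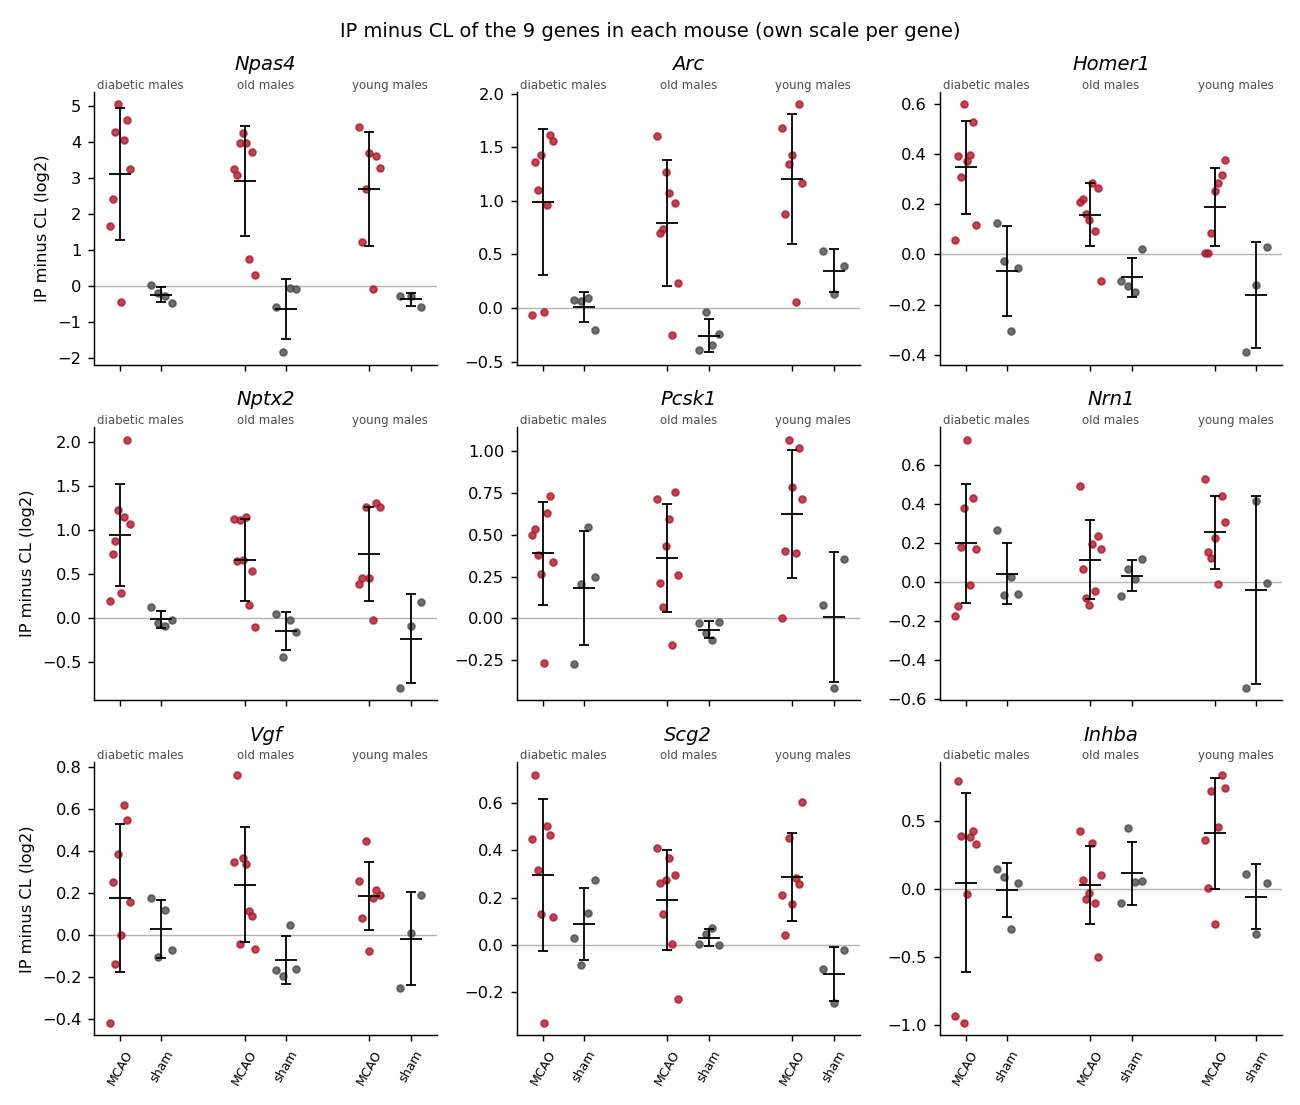
IP minus CL (log2, vertical axis, own scale per gene) of each mouse for the 9 genes, MCAO in red and sham in grey, in diabetic, old and young male mice; the bars are mean ± SD. MCAO points of Npas4, Arc, Nptx2 and Homer1 lie mostly above the sham points and spread down to them, and those of Inhba lie on both sides of 0.

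Counted over the list, 6 of the 9 genes were higher in IP than in CL after MCAO in diabetic mice (Npas4, Arc, Homer1, Nptx2, Pcsk1 and Scg2), against 10.7% of all genes tested. In males there were 4 (Npas4, Arc, Nptx2 and Pcsk1), against 0.338%, and in old mice Npas4 alone, against 0.0308%. No member was lower. Since the list was drawn up with earlier results of these data known, these counts are descriptive. The median of the 9 differences was 0.35, 0.24 and 0.41 in diabetic, old and male mice, with the median of all genes at 0.02, −0.01 and 0.00. In sham mice limma called none of the 9, and 0% of all genes in each group. No member had an unadjusted p under 0.05 there, against 612, 1060 and 1043 of 19505 genes in diabetic, old and male mice. With the study's filter on the standard deviation the count was 3 in diabetic mice, where 4 members were left to test, and 3 in old mice, where 3 were left. That filter keeps genes by their variation in the same arrays. The part of the remaining members that passed is therefore partly set by the filter, and no conclusion is drawn from it. Over all settings the count of members was 3 to 8 in diabetic mice, 0 to 6 in old mice and 2 to 8 in males. In males it was 2 when the 2 mice that stood apart were kept or without MCAO mouse 4, 7 or 8. The number of all genes called changed with the setting too. In males it rose with trended and robust variance, the setting that gave 8 members. A change in the count of members is therefore not specific to them.

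Cell type markers moved with the hemisphere in diabetic mice. Of 10 neuronal markers, 5 were lower and 0 higher in IP than in CL after MCAO there (median −0.18), against 11.4% of all genes lower. The mean over the list was −0.38 to 0.04 in the 8 mice, against 0.00 to 0.07 in the 4 diabetic sham mice. In old mice and males 0 of 10 passed (−0.10 to 0.08 and −0.06 to 0.11). The 2 narrower neuron lists showed less in diabetic mice. Of 7 measured cortical neuron markers 1 was lower (median −0.00483), and of 6 measured striatal neuron markers 0 passed (median 0.0228). Against the 10.7% of all genes that were higher, 4 of 5 measured oligodendrocyte markers were higher (median 0.19, −0.05 to 0.63 over the mice). The mean of these 5 was positive in the 4 diabetic sham mice too (0.00348 to 0.156). Of 6 neutrophil markers 3 were higher (median 0.63, 0.09 to 1.06 over the mice, against −0.14 to 0.88 in the 4 diabetic sham mice). Endothelial markers were higher for 2 of 6 (median 0.15) and the measured red blood cell marker was higher (0.56), while 0 of 6 astrocyte, 0 of 5 microglial and 0 of 5 choroid plexus markers passed. In males 1 of 6 neutrophil markers was higher, against 0.338% of all genes. The neutrophil list had a low mean level, 2.498 in male and 4.367 in diabetic MCAO arrays. The lowest array medians there were 4.105 and 6.161. The part of the cell type markers in the members' results was not tested.

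For IP of MCAO against IP of sham mice, which shares the MCAO IP arrays with the comparison above, 4 members were higher in diabetic (Npas4, Arc, Nptx2 and Homer1), 3 in old and 3 in male mice (Npas4, Arc and Nptx2 in both), against 1.77%, 0.241% and 0.4% of all genes. For CL of MCAO against CL of sham mice limma called 0 of 9 in each group, against 0%, 0.00513% and 0.00513% of genes. Of the members, 0, 1 and 2 had an unadjusted p under 0.05 there: Inhba in old mice (0.42 ± 0.135) and Npas4 and Arc in males (1.83 ± 0.747 and 0.90 ± 0.357). Among all 19505 genes, 849, 961 and 903 had one in either direction. The IP count in males was 0 when the 2 mice that stood apart were kept. Markers moved with the IP comparison too. In diabetic mice 2 of 10 neuronal markers were lower, against 2.03% of all genes, and 3 of 6 neutrophil, 2 of 6 endothelial and the measured red blood cell marker (0.92) were higher. Of the 7 cortical and 6 striatal neuron markers 0 passed there. The 5 choroid plexus markers did not pass in any group. They differed by −1.34 to −0.39 in diabetic, −2.89 to −1.17 in old and −0.43 to 0.05 in male mice. For CL of MCAO against CL of sham mice they did not pass either. There they differed by −1.15 to −0.41 in diabetic, −3.63 to −1.19 in old and −0.13 to 0.15 in male mice, so that the shift was not limited to IP. Their part in the members' results was not tested.

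The response proper, IP minus CL in MCAO mice minus IP minus CL in sham mice, was tested first within each group and then over all 34 mice. Within a group limma called no member at the threshold, against 0% of genes in diabetic, 0% in old and 0.0103% in male mice. An unadjusted limma p under 0.05 was found for 4, 6 and 6 of the 9 members. Of all 19505 genes, 1912, 1155 and 1157 had one, counted in either direction. The absence of calls depended on single mice. Npas4 passed without diabetic MCAO mouse 5 (3.85, adjusted p = 0.0554), without old MCAO mouse 8 (3.93, adjusted p = 0.0906) and without male MCAO mouse 6 (3.52, adjusted p = 0.0404), and in diabetic mice 3 members passed without mouse 5 and 4 when all 3 groups shared 1 fit. For Npas4 the differences with all mice were 3.35 ± 0.813 in diabetic (adjusted p = 0.297), 3.56 ± 0.733 in old (adjusted p = 0.708) and 3.06 ± 0.754 in male mice (adjusted p = 0.433). Averaged over the 3 groups with equal weight, 5 of 9 members rose, against 0.805% of all genes. Npas4 rose by 3.32 ± 0.496 (9.99-fold, adjusted p = 0.00125) and ranked as number 2 of 19505 genes. Arc rose by 0.96 ± 0.19 (1.95-fold, adjusted p = 0.0147), Nptx2 by 0.91 ± 0.168 (1.87-fold, adjusted p = 0.00934), Homer1 by 0.34 ± 0.0658 (1.26-fold, adjusted p = 0.0132) and Pcsk1 by 0.42 ± 0.118 (1.33-fold, adjusted p = 0.17). Homer1 ranked as number 20 and Arc as number 22, with a smaller difference and a smaller SE for Homer1.

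The remaining members did not pass over the 3 groups. Scg2 was just outside with 0.26 ± 0.0843 (adjusted p = 0.277), followed by Vgf with 0.24 ± 0.0937 (adjusted p = 0.413), Nrn1 with 0.18 ± 0.0932 (adjusted p = 0.571) and Inhba with 0.14 ± 0.151 (adjusted p = 0.822). Leaving out each of the 34 mice in turn kept Npas4, Arc, Homer1 and Nptx2 called in 34 of 34 fits. Pcsk1 was called in 32 and lost without male sham mouse 3 or diabetic sham mouse 1 (highest adjusted p = 0.369), and Scg2 was called in 4. With the 2 male mice that stood apart, Homer1 was 0.12 and neither Homer1 nor Pcsk1 passed. Among fits without 1 group, Homer1 was lost without the diabetic group (0.30, limma adjusted p = 0.402). Pcsk1 was lost whichever group was left out. It was 0.52 without diabetic mice, 0.32 without males and 0.41 without old mice (limma adjusted p = 0.472, 0.358 and 0.543).

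**Figure D3:**
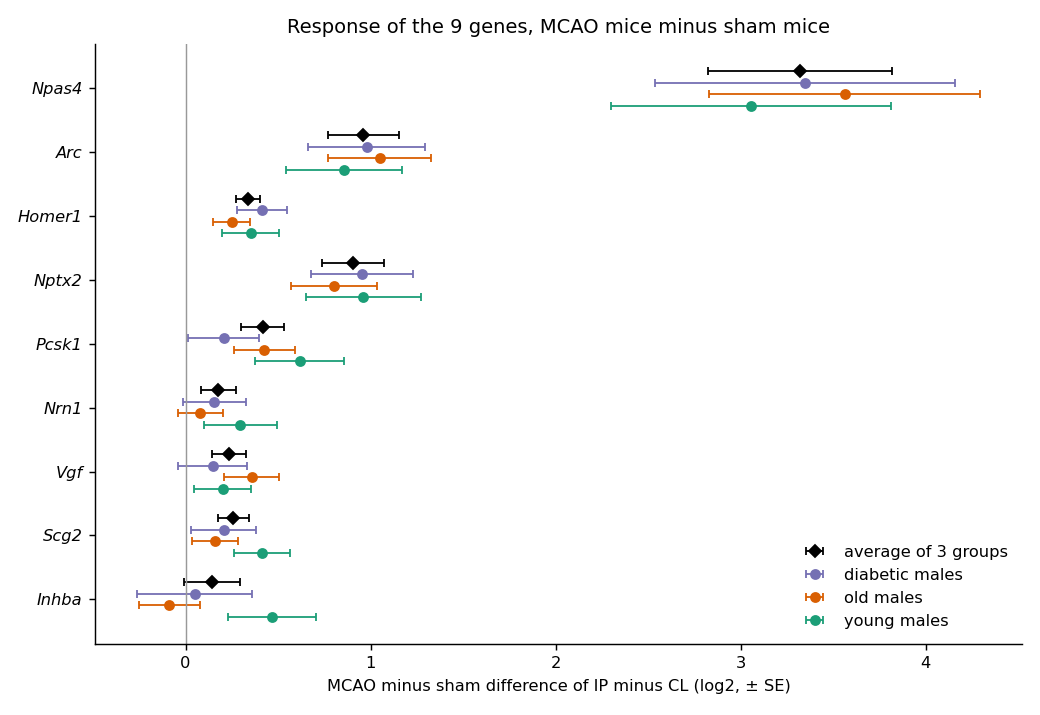
Difference between MCAO and sham mice in IP minus CL (log2, horizontal axis, ± SE) for each gene, averaged over the 3 groups (black diamonds) and within each group (circles). Npas4 lies beyond 3 in each group, Arc and Nptx2 near 1, and the bars of Nrn1, Vgf and Inhba cross 0 in diabetic mice.

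Whether the response differed between the groups was tested on IP minus CL of the MCAO mice in the same fit. None of the 9 genes passed for diabetic minus males, old minus males or diabetic minus old mice, against 9.35%, 0% and 5.15% of all genes. An unadjusted limma p under 0.05 was found for 0, 0 and 1 member (Homer1, diabetic minus old, 0.19 ± 0.0892). Of all 19505 genes, 2888, 720 and 2515 had one, so the Homer1 value does not stand out from the other genes. For Npas4 the diabetic minus male difference was 0.42 with a 95% interval of −0.995 to 1.84, the old minus male difference 0.23 (−1.19 to 1.65) and the diabetic minus old difference 0.19 (−1.18 to 1.56). For Arc they were −0.22 (−0.76 to 0.33), −0.41 (−0.96 to 0.13) and 0.20 (−0.33 to 0.72). The intervals of Npas4 reach beyond 1 unit in both directions for old minus males and diabetic minus old, so that differences of that size are not excluded with these numbers of mice. For Nrn1, Vgf and Scg2 all 9 intervals lay within −0.41 to 0.34.

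The members did not all follow Npas4 from mouse to mouse. Within each group of MCAO mice, Pearson's r and Spearman's rho between IP minus CL of Npas4 and that of each other member were computed, 24 pairs in all, with two-sided exact permutation tests over pairings and Benjamini-Hochberg adjustment over the 24. With Arc, r was 0.79 in diabetic (rho 0.67), 0.80 in old (rho 0.71) and 0.93 in male mice (rho 0.86), each with exact p adjusted to 0.0664 for r, and to 0.285, 0.276 and 0.19 for rho. With Nptx2 r was 0.79, 0.83 and 0.48 (rho 0.88, 0.71 and 0.11; exact adjusted p of r = 0.0664, 0.0664 and 0.497). In total 9 of the 24 pairs had an adjusted p under 0.25 for r and 3 for rho, and 0 had one under 0.05. Without the 2 mice farthest from the median of Npas4, which in each group had high CL levels, r with Arc was −0.01 in diabetic, 0.01 in old and 0.54 in male mice, and r with Nptx2 0.59, 0.06 and −0.75. Of the 9 pairs, 4 then turned negative and 3 kept an r above 0.5 (Arc and Nrn1 in males, Nptx2 in diabetic mice), so that the others rested on those mice. With Inhba r lay between −0.02 and 0.08.

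**Figure D4:**
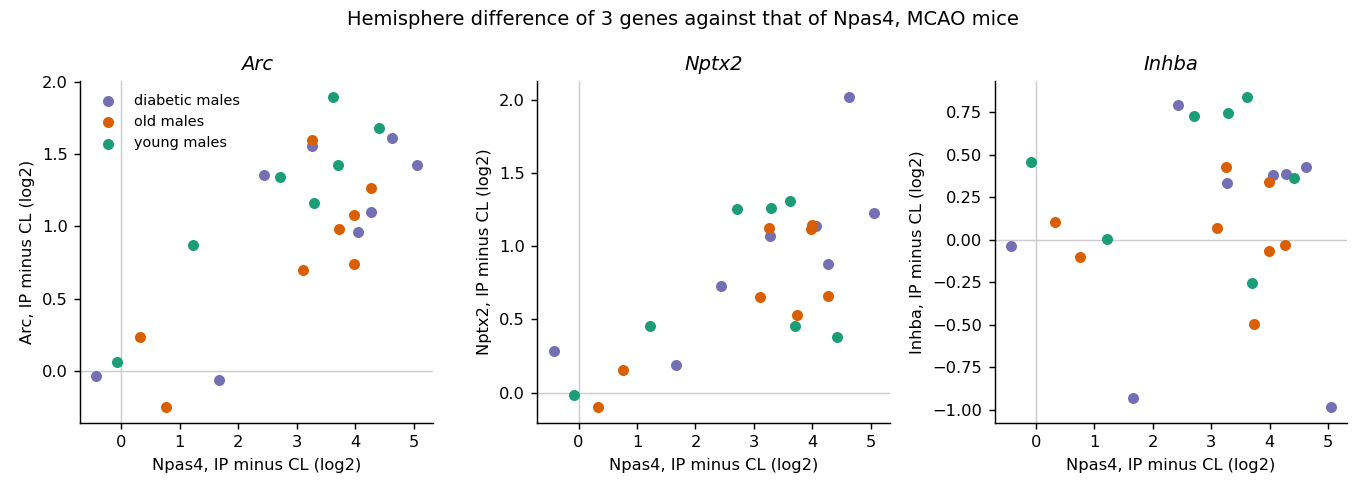
IP minus CL of Arc, Nptx2 and Inhba (log2, vertical axes) against that of Npas4 (log2, horizontal axis), 1 point per MCAO mouse, coloured by group. Arc and Nptx2 are low in the mice where Npas4 is low, and Inhba shows values on both sides of 0 along the whole axis.

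Among all genes, the 5 outside the list whose pattern over the 23 MCAO mice was most like that of Npas4, by Pearson's r after subtraction of group means, were Fos (0.96), Junb (0.90), Fosb (0.88), Rgs2 (0.86) and Nr4a1 (0.85). The points share arrays between genes, and the values are descriptive. Arc ranked as number 7 of 19504 by this measure (r = 0.83), Nptx2 as number 18 (0.71), Scg2 as 204 (0.49), Pcsk1 as 341 (0.44), Homer1 as 495 (0.40), Vgf as 535 (0.39), Nrn1 as 4240 (0.11) and Inhba as 5768 (0.05). The same mice stood out in Fos: its IP level was 9.91 in diabetic mouse 5, 10.43 in old mouse 6, 9.11 in old mouse 8 and 8.90 in male mouse 6, against CL levels of 9.73, 10.10, 9.31 and 8.47 in these mice.

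Transcription factors known for rapid induction by neuronal activity were mostly higher. This list and that of further effectors were drawn up with earlier results of these data known, so their counts are descriptive. Of 16 measured (17 listed), 13 rose and 0 fell in the average over the 3 groups, against 0.805% of all genes that rose, with a median of 1.11 against 0.00 for all genes. The largest were the AP-1 subunits Fos (2.06 ± 0.314) and Fosb (2.00 ± 0.294), the orphan nuclear receptor Nr4a1 (1.59 ± 0.254) and the zinc-finger factor Egr4 (1.38 ± 0.263), with adjusted p = 0.00125, 0.00125, 0.00161 and 0.0109. All 4 were smaller in log2 difference than Npas4. Of 16 measured further activity-regulated effectors (18 listed), 8 rose and 0 fell, with a median of 0.29: the prostaglandin synthase Ptgs2 (1.45 ± 0.224), the G-protein regulator Rgs2 (1.27 ± 0.236) and the growth-arrest gene Gadd45g (1.26 ± 0.225) had the largest differences, with adjusted p = 0.00125, 0.00934 and 0.00615.

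No gene on the lists of the members' molecular partners passed over the 3 groups, where 0.805% of all genes rose and 0.477% fell. With shares this low, the absence of calls in lists of 5 to 8 genes tells little. None of the 5 relatives and dimer partners of Npas4 passed in either direction (Arnt, Arnt2, Npas1, Npas2 and Npas3, −0.14 to 0.11). None of 7 measured Homer scaffold and glutamate receptor genes passed (−0.30 to 0.33), none of 5 genes of the pentraxin and AMPA receptor list (−0.13 to 0.05), none of 7 prohormone-processing and granin genes (−0.12 to 0.22) and none of 8 activin ligands, receptors and inhibitors (−0.21 to 0.25). The medians of these lists were 0.01, 0.07, −0.04, −0.05 and −0.06. In IP against CL after MCAO in diabetic mice, 10.7% of all genes were higher and 11.4% lower. There, 1 of 5 Npas4 relatives and 3 of 7 Homer scaffold and glutamate receptor genes were higher. Of the pentraxin and AMPA receptor genes 2 of 5 were lower, as was 1 of 7 prohormone-processing and granin genes. Of 8 activin genes 1 was higher and 1 lower. In old mice and males 0 genes of these 5 lists passed in that comparison, against 0.041% and 0.472% of all genes in either direction.

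In the average over the 3 groups against sham mice, none of the 10 neuronal, 6 striatal neuron, 6 astrocyte, 5 microglial, 5 oligodendrocyte, 6 endothelial and 6 neutrophil markers passed. Of 7 cortical neuron markers 1 rose (Tbr1, 0.25 ± 0.0752, limma adjusted p = 0.208).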

How the data were processed

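RNA of both hemispheres of 48 mice was measured on 96 Clariom S Mouse arrays. As deposited, signals are on the log2 scale, after robust multi-array averaging by the authors (background adjustment and quantile normalization), each group apart; the submitters' processing notes name Affymetrix Expression Console, with no version. Of 29129 probe sets, 19572 carry 1 gene symbol and 9557 none, and the highest-mean probe set of each symbol gave 19505 genes. All value columns were matched to samples by their labels. In diabetic and old arrays, and in those labelled female, the values of 8800 probe sets were moved up by 3 rows. The move was checked against the males for diabetic and old arrays only. Arrays of male MCAO mouse 3 and male sham mouse 1 and all arrays labelled female were left out. The study's methods describe the removed male mice as ischemic, whereas sham mouse 1 is sham by its label.

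Differences were fitted in R 4.3.3 with limma 3.58.1 (lmFit, eBayes) within each group, with MCAO and sham arrays in 1 fit, and called at a Benjamini-Hochberg adjusted p under 0.25 over all 19505 genes. IP and CL of a mouse were paired by the block of the mouse, as both come from 1 brain. After subtraction of group means, same-mouse arrays correlated weakly (median 0.0823 to 0.176, against −0.113 to −0.0182 for different mice). That subtraction itself lowers the values for different mice. The CL array most like an IP array came from the same mouse in 2 of 8 diabetic, 4 of 8 old and 7 of 7 male MCAO mice. For sham mice this was so in 4 of 4, 3 of 4 and 3 of 3. MCAO minus sham over the 3 groups and differences between groups were fitted on IP minus CL of 34 mice. Correlations and counts used Python 3.11.15 with scipy 1.17.1. The fits were tested on simulated data. The members and gene lists were chosen with earlier results of these data known. All members are named, and of each other list up to 4 called genes with the largest difference over the 3 groups, and the 5 genes most like Npas4. 1 gene that this rule names is not reported here.

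Alternatives were other filters (standard deviation at the 75th percentile, mean signal), probe set means, array centring, variance settings, no block, a threshold of 0.05 and left-out mice. Leaving out mice over the 3 groups, and the comparison of IP of MCAO with IP of sham mice with all its alternatives, were added after seeing the data.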

Additional observations from a re-analysis of the deposited data

Results flagged for a closer look

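Among 75 sets of 4 to 8 mice, 6 held a mouse far from the others by Dixon's criterion, which chance gives in about 1 in 20 sets. Npas4 in the IP hemisphere of diabetic MCAO mouse 8 was 9.76, with the nearest of the other 7 mice at 11.1. Arc in the IP hemisphere of male MCAO mouse 5 was 7.71, with the nearest at 8.25. Nptx2 in the CL hemisphere of male MCAO mouse 6 was 7.30, with the nearest at 6.75, and this mouse also had the highest CL level of Npas4 in its group. For IP minus CL, Pcsk1 was −0.266 in diabetic MCAO mouse 5 (nearest 0.263), Arc −0.204 in diabetic sham mouse 4 (nearest 0.0686) and Vgf 0.0501 in old sham mouse 3 (nearest −0.161). No difference between groups in the response of a member passed the test.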

How the results depend on the processing

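Of 1381 single-gene values recomputed under other settings, 1264 kept their direction and their side of the threshold, 106 crossed it and 11 reversed. Counts of members called are given for IP against CL after MCAO first. In diabetic mice (6) the count was 3 with the filter on the standard deviation, which keeps genes by their variation in the same arrays. In old mice (1) it was 3 with that filter, 4 with the filter on mean signal, 0 at an adjusted p under 0.05, 0 with arrays of 1 surgery, 6 with trended and robust variance and 3 with centred arrays. In males (4) it was 2 at 0.05, 8 with trended and robust variance and 2 with MCAO mouse 3 and sham mouse 1. The number of all genes called in males also fell at 0.05 and rose with trended and robust variance. The counts of members under other settings are thus not specific to the members. Without the replicate block that pairs the hemispheres of a mouse the counts were 6, 1 and 4 in diabetic, old and male mice, and 0 in sham mice. Leaving out each mouse in turn gave 5 to 8 in diabetic, 0 to 5 in old and 2 to 4 in male mice; in old mice 5 without MCAO mouse 8 and 4 without MCAO mouse 6, and 0 without MCAO mouse 1, 2, 3, 4, 5 or 7 or sham mouse 1 or 4. For IP of MCAO against IP of sham mice, the count was 2 in diabetic (4) and 1 in old mice (3) at 0.05, and 0 in males (3) with the 2 mice that stood apart. Left-out mice gave 2 to 4 in diabetic (2 without sham mouse 2 or 3), 1 to 3 in old (1 without sham mouse 2, 3 or 4) and 2 to 4 in male mice. For MCAO minus sham, the count in diabetic mice (0) was 4 when all 3 groups shared 1 fit and 3 without MCAO mouse 5; the range was 0 to 3 in diabetic, 0 to 1 in old (1 without MCAO mouse 8) and 0 to 1 in male mice (1 without MCAO mouse 6). Over the 3 groups (5) it was 3 leaving out the diabetic group, 3 with male MCAO mouse 3 and sham mouse 1, and 4 to 6 with left-out mice. Reversed values were near 0: Arc in diabetic sham mice was −0.00585 with centred arrays and −0.0204 to 0.0806 with left-out mice; Inhba after MCAO was −0.0607 to 0.193 in diabetic and −0.0275 to 0.105 in old mice with left-out mice, and −0.0181 over the 3 groups leaving out the male group. The causes were not tested. With 3 or 4 sham mice per group, the number of arrays limits what could be detected.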

Other observations

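In the arrays labelled female, which entered no comparison, Npas4 was 6.90 to 11.27 (median 9.88) in arrays labelled IP and 7.53 to 12.23 (median 11.43) in arrays labelled CL of the 8 MCAO mice. In the 4 sham mice it was 6.74 to 7.56 in arrays labelled IP and 1.52, 12.07, 12.36 and 7.39 in arrays labelled CL. In the array at 1.52 all genes (100% of them) stood at that same value, so that it gives no Npas4 level.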
